A study of Mus musculus with 2 samples.

Results

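The Mir669, Mir466, Mir467 and Mir297 genes form 4 related mouse microRNA families, most of whose copies lie in tandem inside the gene Sfmbt2. Members were the probe sets with a platform gene symbol of 1 of these families, and 70 of the 33793 probe sets with values met that rule. Of the 70, 43 named a single gene (24 genes in all) and 27 named several copies at once. The counts and medians below use the 43, out of 23521 probe sets that named 1 gene. Members were chosen by gene symbol alone, but the families came to attention through the measured ratio of Mir669a-3 on these same arrays, so every value here is a description and none is a test.

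The cells were mouse CD8+ T cells, activated from the naive state by beads coated with antibodies to CD3 and CD28, with human interleukin-2 at 100 U/mL in both groups. One culture received bezafibrate, a lipid-lowering fibrate and agonist of the PPARs (peroxisome proliferator-activated receptors), at 30 µM from start to end, and the control culture received its solvent, dimethyl sulfoxide (DMSO). Expansion ran to day 13. The labels name 1 array per group and give no strain, age or number of animals, so there is no replicate spread, no test was possible, and every difference compares 2 arrays rather than 2 conditions. In RNA from a whole culture, fewer cells of a type and less RNA per cell cannot be told apart.

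A microRNA gene is transcribed as a long primary RNA that folds into a hairpin. The nuclease Drosha and its partner Dgcr8 cut the hairpin out, exportin-5 carries it to the cytoplasm, Dicer trims it, and 1 strand is loaded into an Argonaute protein, which it guides to messenger RNAs through its seed, bases 2 to 8 of the mature sequence. Sfmbt2 encodes a Polycomb-group protein that is imprinted and best known from the placenta, where its intronic microRNAs are abundant. In RefSeq (assembly GRCm38.p6), 71 of 81 genes of the 4 families lay between the ends of Sfmbt2, namely 29 of Mir669, 23 of Mir466, 14 of Mir467 and 5 of Mir297. The other 10 lay elsewhere in the genome. The array was read from amplified total RNA, and its values do not separate a primary transcript from a hairpin or a mature microRNA.

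The mature sequences at hand show how repetitive some copies of the families are. None of them is a copy inside Sfmbt2 or of Mir297. How far the probe sets can tell copies apart was not tested. The RefSeq sequence table (GRCm38.p6) matched 2 of the 24 member genes, Mir467f and Mir466i, both outside Sfmbt2, and held 6 further copies outside Sfmbt2 that no probe set named alone. Each is printed 5′ to 3′ with the seed in capitals, the measured pair first.
mmu-miR-467f: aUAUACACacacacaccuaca
mmu-miR-466i-3p: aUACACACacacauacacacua
mmu-miR-466k: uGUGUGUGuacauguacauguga
mmu-miR-466j: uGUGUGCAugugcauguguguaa
mmu-miR-466q: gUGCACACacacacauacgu
mmu-miR-467g: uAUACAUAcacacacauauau
mmu-miR-467h: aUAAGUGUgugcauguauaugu
mmu-miR-669n: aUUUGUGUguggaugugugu
The 8 sequences are rich in UG or CA repeats. In 7 of the 8 the seed held GUGU or ACAC, read in the printed direction only, compared with 54 of 1738 mature sequences in the whole table (3.11%). The longest stretch in which a pyrimidine and a purine alternated had a median of 20 bases, against 4 over all mature sequences, and only mmu-miR-669n was short at 8. All 8 seeds nonetheless differed, so that sharing a family name did not mean sharing a seed among these copies. The mature Mir467f sequence lies at chr11:69635419-69635439 on the minus strand, overlapping the gene Fxr2, and that of Mir466i at chr13:17747552-17747573 on the plus strand, overlapping Cdk13; the gene table used does not say whether these places are exonic or intronic.

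The members were dim in these cells. A probe set was counted above the floor when either array exceeded its own median over all probe sets naming 1 gene, a log2 signal of 4.84 in control and 4.81 with bezafibrate. Only 5 of the 43 members (11.6%) did so, compared with 135 of 455 probe sets of other Mir genes (29.7%) and 51.7% of all probe sets naming 1 gene. The same 5 exceeded the background limit on both arrays, which was the 95th percentile of 1405 probe sets for olfactory and vomeronasal receptors, genes that T cells are not known to use (4.70 and 4.68). The other 38 lay under that limit on both arrays. Probes differ in affinity, so levels were set against the floor and not against each other.

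**Figure D1:**
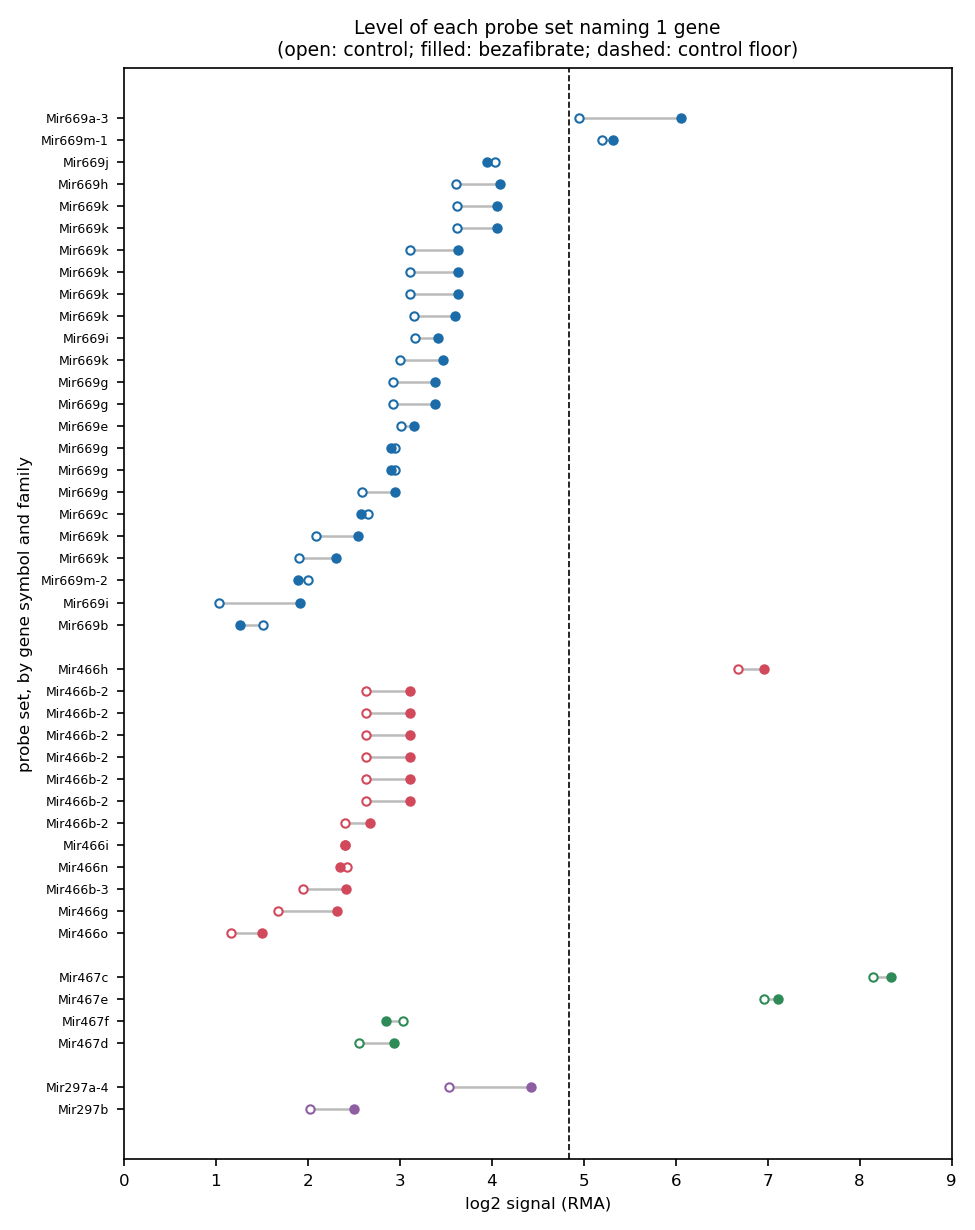
Log2 RMA signal (x axis) of each of the 43 probe sets that name 1 gene, by family (y axis), with an open circle for the control array, a filled circle for the bezafibrate array and a dashed line at the control floor of 4.84. The 5 rows to the right of the line are those of Mir467c, Mir467e, Mir466h, Mir669m-1 and Mir669a-3, and Mir669a-3 has the widest gap of these, 1.10.

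The 5 members above the floor were all higher with bezafibrate, 4 of them slightly. Mir467c had a log2 signal of 8.14 in control and 8.35 with bezafibrate, a 1.15-fold difference. Mir467e had 6.96 and 7.11, or 1.11-fold. Mir466h had 6.68 and 6.96, or 1.21-fold. Mir669m-1 followed with 5.19 and 5.32, or 1.09-fold. These gaps fell well short of 1.5-fold, and without replicates they have no error to be read against.

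Mir669a-3 was the only member above the floor past the 1.5-fold limit. Its probe set (17366744) had a log2 signal of 4.95 in control, just over the floor, and 6.06 with bezafibrate, a 2.15-fold difference and a log2 ratio of 1.10. Of all the array's probe sets naming 1 gene and above the floor, 0.707% were higher by 1.5-fold or more and 0.559% lower by as much, while 0.0987% were higher by 2-fold or more. Of the 135 other Mir probe sets above the floor, 6.67% were higher by 1.5-fold or more and 1.48% lower by as much. A probe set passed the floor if either array did, so these shares are partly set by the difference itself. Of the 9 higher other Mir probe sets, 6 passed through the bezafibrate array alone, and both lower ones passed through the control array alone. Above the floor on both arrays were all 5 members, with Mir669a-3 at least 1.5-fold higher, 109 other Mir probe sets, with 3 higher and 0 lower, and 11358 of all probe sets naming 1 gene, with 0.519% higher and 0.335% lower. The requirement of both arrays was chosen after the data were seen. With 5 members above the floor, a single probe set is 20.0% of them, and that share therefore carries little weight. No member was at least 1.5-fold lower on either side of the floor.

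Other probe sets of the same duplicated gene did not read such a difference. The annotation listed Mir669a-3 on 12 further probe sets, each shared with other Mir669a copies. All 12 held one identical pair of values, 1.89 in control and 2.16 with bezafibrate, a log2 ratio of 0.27 and within background. A further 2 probe sets shared between Mir669a and Mir669p copies held 1.62 and 1.96, a ratio of 0.35. Averaged over all 13 probe sets that name it, Mir669a-3 had a ratio of 0.33. The 2.15-fold difference therefore rests on 1 probe set, while the shared ones have the same direction and a smaller size at very low signal.

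Below the floor, 3 more members were at least 1.5-fold higher. With the floor dropped, 4 of 43 members (9.30%) were at least 1.5-fold higher, against 6.37% of other Mir probe sets and 3.05% of the 2756 other named probe sets within the interquartile range of the members' levels (a mean log2 signal of 2.47 to 3.38). None of the 43 members was at least 1.5-fold lower, against 2.42% and 2.72% of those sets. All 4 higher members had a mean log2 signal outside the range of 2.47 to 3.38. Mir669a-3 and Mir297a-4 lay above it, and Mir466g and a Mir669i probe set lay below it. The 3.05% is therefore not matched in level to the members counted, and no member within the range was at least 1.5-fold higher. Mir297a-4 had 3.53 and 4.42, a ratio of 0.89. One of the Mir669i probe sets had 1.04 and 1.91, a ratio of 0.87, but its second had 3.17 and 3.41, a ratio of 0.25. Mir466g had 1.68 and 2.32, a ratio of 0.64. All of these values lay within background on both arrays.

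Over all 43 probe sets, the members leaned towards bezafibrate. Of them, 34 were higher, 8 lower and 1 equal, with a median log2 ratio of 0.43 and an interquartile range from 0.14 to 0.47. The higher ones made up 79.1% of the members, against 44.3% of all probe sets naming 1 gene. The share was 50.8% of the 455 other Mir probe sets and 42.3% of the 2756 of like level. The median over all probe sets naming 1 gene was 0.00, over the 455 other Mir probe sets 0.01, and over the 2756 of like level 0.00. Above the floor the gap was narrower, with a median of 0.20 over the 5 members and 0.09 over the 135 other Mir probe sets, a difference of 0.11 against 0.42 over all probe sets of both groups. The 79 other Mir probe sets of like level had a median of 0.00, with 38 higher and 34 lower. All of these come from the same pair of arrays, and part of the lean comes from copies counted repeatedly, as the duplicated probe sets show.

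**Figure D2:**
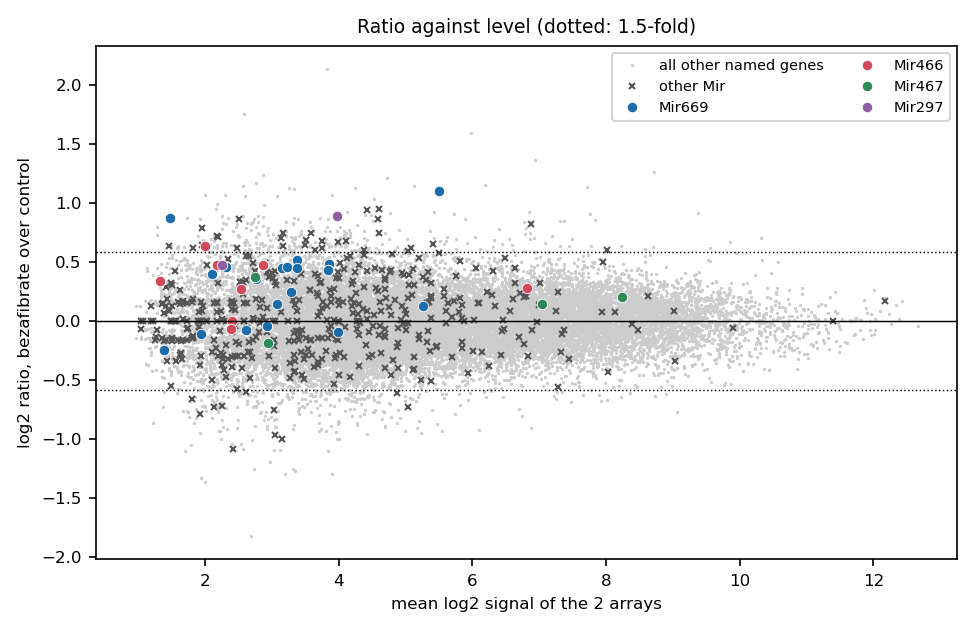
Log2 ratio of bezafibrate over control (y axis) against the mean log2 signal of both arrays (x axis), with grey points for all other named genes, crosses for other Mir genes, coloured circles for the 4 families and dotted lines at 1.5-fold. Most members lie at low signal and above 0, and Mir669a-3 is the only one both past 1.5-fold and above the floor.

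The duplicated copies were not independent readings. Exactly 18 of the 43 members (41.9%) held a pair of values that another probe set also held, compared with 8.35% of other Mir probe sets and 6.36% of all probe sets with values. Among the 18, Mir466i, Mir669j and a Mir669k probe set (17366826) shared theirs only with probe sets outside the families. Counting each identical pair once within a family left 33 readings, 25 higher, 7 lower and 1 equal, with a median ratio of 0.36. With 1 probe set per gene, the one with the highest mean signal, there were 17 genes higher, 6 lower and 1 equal, and the median was 0.26. For Mir669g this choice kept a ratio of 0.45 and left out those of −0.04. Taking each gene's median ratio gave the same counts of 17, 6 and 1. Mir669k, Mir466b-2 and Mir669g alone supplied 21 of the 43 probe sets. Without them, 15 of the remaining 22 were higher, 6 lower and 1 equal, with a median of 0.23.

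Mir669k, a symbol whose gene lies early in the cluster, was named by 9 probe sets holding 6 different pairs of values. Control signals ran from 1.90 to 3.62 and bezafibrate signals from 2.31 to 4.05, and all 9 ratios lay between 0.40 and 0.52. Its probe sets thus kept 1 direction, all within background. Mir466b-2 had 7 probe sets, 6 of them with the same pair, 2.64 and 3.11 (ratio 0.47), and 1 with 2.40 and 2.68 (ratio 0.27). Mir466b-3 had 1.94 and 2.42, with a ratio of 0.47 equal to that of Mir466b-2 to within 0.00001.

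The 5 probe sets of Mir669g were divided. Of these, 2 shared the pair 2.93 and 3.38 (ratio 0.45), 1 had 2.59 and 2.95 (ratio 0.36), and the other two shared 2.95 and 2.91 (ratio −0.04). Copies under the same symbol thus differed in direction within background. The paired copies of Mir669m differed as well, with a ratio of 0.13 for Mir669m-1, above the floor, and −0.11 for Mir669m-2, within background on both arrays.

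Ratios of equal size were common at this level over the whole array, not only among related copies. Of 2465 like-level probe sets outside the families with a ratio other than 0, 69.4% had a ratio whose size recurred in another probe set to within 0.00001. Of the 30 sizes of nonzero ratio among the members, 21 were also found outside the families. The size shared by Mir466b-2 and Mir466b-3 (0.47) was found in 5 such probe sets, and that of the seventh Mir466b-2 probe set (0.27) in 49. An equal ratio on 2 dim probe sets is therefore not by itself a sign that they read the same RNA.

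The families differed more in number of probe sets than in direction. Mir669 had 24 probe sets for 11 genes, 18 of them higher and 6 lower; the median ratio was 0.43, or 0.14 with 1 probe set per gene. Its lower members included Mir669b at −0.24 (1.51 and 1.27), Mir669j at −0.09 (4.04 and 3.95) and Mir669c at −0.08 (2.66 and 2.58). Mir669h (3.61 and 4.09) had 0.49 and Mir669e (3.02 and 3.16) 0.14. Mir466 had 13 probe sets for 7 genes, with 11 higher, 1 lower and 1 equal and a median of 0.47, or 0.34 with 1 per gene. Its lower member was Mir466n at −0.07 (2.42 and 2.35), and Mir466o had 0.34 (1.16 and 1.51).

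Mir467 had 4 probe sets for 4 genes, 3 of them higher, and a median of 0.17. Beside Mir467c and Mir467e, Mir467d had 2.56 and 2.93, a ratio of 0.38. Mir297 had only Mir297a-4 and Mir297b, both higher, and Mir297b had 2.02 and 2.50, a ratio of 0.48. No test between families was made, because their probe sets share sequence and arrays and Mir297 rests on 2 readings.

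The 27 probe sets that name several copies gave few further readings. They held 6 distinct pairs of values between them and brought in 16 genes that no probe set named alone, so 40 family genes were named in all. Of the 27, 26 were higher and 1 lower, with a median ratio of 0.27. The probe sets of Mir467a copies, some with Mir467b and Mir467d copies included, held 3.29 and 3.52 in 8 cases, 4.54 and 4.77 in 3 cases and 3.25 and 3.56 in 1. The first 2 of these pairs had the same ratio, 0.24, and the last 0.32. One probe set for Mir466d and Mir466n copies was above the floor, at 6.44 and 6.37, and was the single lower one at −0.07.

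Members inside Sfmbt2 made up nearly all of the set, 41 probe sets for 22 genes, 34 of them higher and 7 lower, and their median ratio was 0.45. The 2 members elsewhere were not higher. Mir467f had 3.04 in control and 2.85 with bezafibrate, a ratio of −0.19, and the overlapping gene Fxr2 had 7.36 and 7.46. Mir466i had 2.41 on both arrays, and the overlapping gene Cdk13 had 9.88 and 9.80. Exactly equal values on both arrays were held by 5.63% of all probe sets at any level. Of the 2756 other named probe sets of like level, a range that begins just above Mir466i, 291 had equal values. A ratio of 0 at low signal is therefore not rare. With 2 probe sets within background, the copies outside Sfmbt2 cannot be set firmly against those inside.

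Along Sfmbt2, the ratios had no clear order by the place of the named gene. Each probe set took the place of the gene it names, although a symbol named up to 9 probe sets. Thus a probe set of Mir466b-2 (17366742) stands at place 46 and that of Mir669a-3 (17366744) at place 15, though their numbers nearly adjoin. The places are therefore those of names, and which copy each probe set reads was not tested. Over 22 genes with 1 probe set each, Spearman's rho of the ratio with the place in the row of 71 family genes was 0.20, a description across genes that share arrays and sequence. With the row divided into 3 stretches of about equal gene number, the first held 20 probe sets of 8 genes, 16 of them higher, and a median of 0.43. By this placing, the middle stretch held only the 7 probe sets of Mir466b-2. The last held 14 probe sets of 13 genes, 11 of them higher, and a median of 0.33. Genes named by probe sets of opposite direction lay close together, as with Mir669k (higher), Mir669g (divided) and Mir669j (lower), which follow Mir669a-3 within the first stretch.

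**Figure D3:**
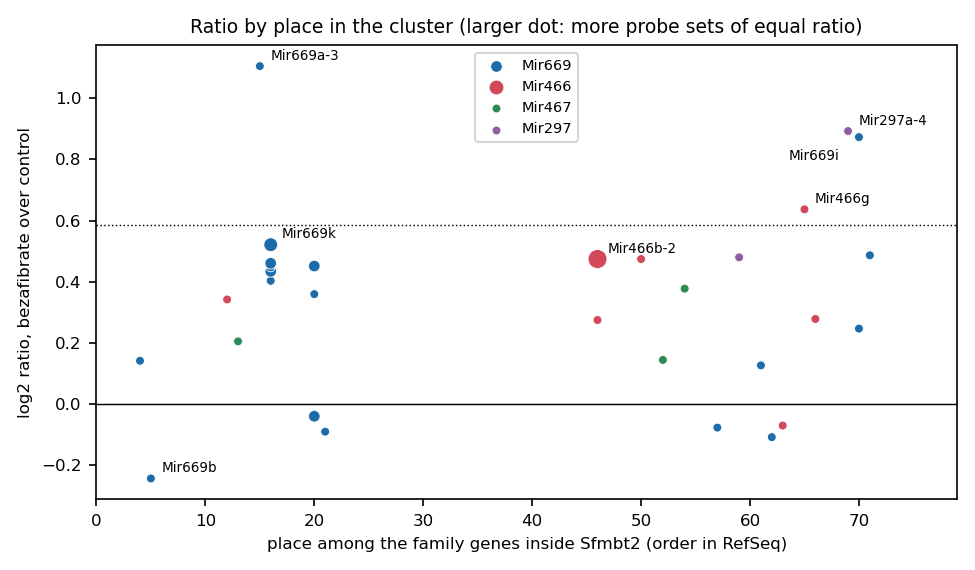
Log2 ratio of bezafibrate over control (y axis) for the 41 probe sets inside Sfmbt2 by the place of their gene among the 71 family genes there (x axis), coloured by family, with larger dots for more probe sets of equal ratio and a dotted line at 1.5-fold. Mir669a-3 at place 15 stands at 1.10 beside Mir669k at place 16 with ratios of 0.40 to 0.52, and values below 0 occur in the first and last stretches of the row. All probe sets of a symbol are drawn at the place of its gene, whichever copy they read.

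The host gene itself was within background. The probe set of Sfmbt2 had 3.42 in control and 3.81 with bezafibrate, a ratio of 0.38. The members' median was 0.43 over all probe sets, 0.36 with identical pairs counted once and 0.26 with 1 probe set per gene. Any closeness therefore depends on how the repeated copies are counted. With 1 array per group, the uncertainty of these values could not be measured. Of the nearest protein-coding neighbours, Itih5 had 4.52 and 4.47, and Prkcq, which encodes a protein kinase of T cell receptor signalling, had 9.81 and 9.98. Pfkfb3, an activator of glycolysis, had 5.96 and 6.28 (ratio 0.33), and Kin had 6.90 and 7.11 (ratio 0.20). Itih2 had 3.73 on both arrays, and Rbm17 had a ratio of 0.00.

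Intronic microRNAs are usually transcribed with their host gene. With a PPAR agonist in the medium, the promoter of Sfmbt2 was therefore searched for a PPAR element. Other regulatory sequences, within the gene or near the copies, were not examined. RefSeq (GRCm38.p6) lists a pair of start sites for Sfmbt2. The 250 bases before the upstream one, chr2:10370201-10370450 on the plus strand, are printed with CpG dinucleotides in capitals.
Sfmbt2 upstream promoter: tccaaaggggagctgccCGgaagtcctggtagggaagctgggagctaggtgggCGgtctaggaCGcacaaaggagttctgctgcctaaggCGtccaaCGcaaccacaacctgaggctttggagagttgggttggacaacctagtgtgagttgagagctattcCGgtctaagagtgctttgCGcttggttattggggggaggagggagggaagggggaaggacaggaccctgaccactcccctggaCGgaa
This stretch held 8 CpG dinucleotides and the one before the downstream start 15, where the median over all promoters of that length was 6. The letters AGGTCANAGGTCA, the consensus direct repeat bound by PPAR with its partner RXR, were searched on both strands, as was its repeated unit AGGTCA, which lies within the longer motif. Neither occurred in either Sfmbt2 promoter. The longer motif occurred in 11 of 32851 promoters (0.0335%) and AGGTCA in 14.0% of them, so the longer motif is scarce in such windows anyway, and its absence here says nothing about PPAR binding.

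Genes of the microRNA pathway were mostly expressed, with small differences. Of 27 gene names listed, Sfmbt2 included, 23 had a value and 18 lay above the floor. Of the 23, 17 were higher with bezafibrate, 5 lower and 1 equal, with a median log2 ratio of 0.10, and none was 1.5-fold apart. Over all probe sets naming 1 gene, 44.3% were higher. The 17 include the host gene Sfmbt2, which was within background. Drosha had 7.85 and 7.76, Xpo5, which encodes exportin-5, had 8.02 and 8.07, and Dicer1 had 7.57 and 7.80. The Argonaute gene Ago2 had 9.61 and 9.79. The largest ratios in the list were 0.50 for Ddx5, an RNA helicase of the Drosha complex (10.32 and 10.82), and 0.50 for Ago3 (6.12 and 6.62). The lowest was −0.24 for Ran, the GTPase that works with exportin-5.

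The Mir17 cluster, which promotes lymphocyte proliferation, was above the floor in all 4 of its measured genes and higher in all 4, with a median ratio of 0.42. Mir19a had 4.24 and 4.99 (1.68-fold), so that it was within background in control and passed the floor through bezafibrate alone. Mir18 had 5.83 and 6.28, Mir20a had 4.86 and 5.26 and Mir17 had 5.47 and 5.68. The microRNAs known from T cells were higher in 10 of 15 cases, lower in 4 and equal in 1 (median 0.24), and 5 of the 15 lay above the floor. Of these 15, 1 was at least 1.5-fold higher and 2 at least 1.5-fold lower. Without a floor, 6.37% of other Mir probe sets were higher and 2.42% lower by as much. Over the 23521 probe sets naming 1 gene, 304 were higher and 295 lower by as much. Among the 15, Mir150 was the higher one, at 3.65 and 4.32, within background on both arrays. Mir182 had 3.65 in control and 2.65 with bezafibrate, also within background, and Mir23a had a ratio of −0.61. Mir142 had 8.53 and 8.74. The let-7 genes were higher in 5 of 11 cases and lower in 4 (median 0.00). The imprinted Dlk1-Dio3 cluster, which like that of Sfmbt2 is best known from embryo and placenta, was higher in 10 of 30 cases and lower in 16 (median −0.07).

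**Figure D4:**
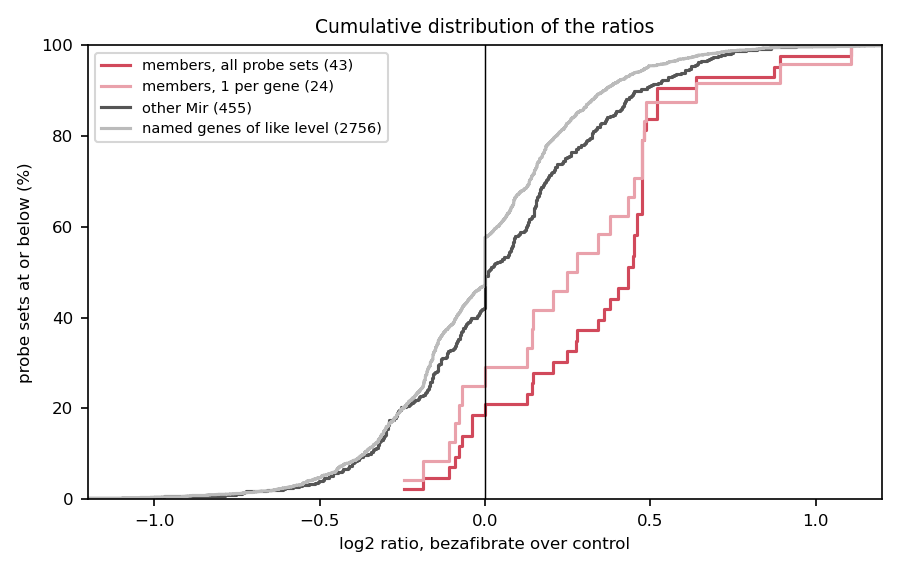
Cumulative share of probe sets in percent (y axis) by log2 ratio of bezafibrate over control (x axis) for the 43 members, the same reduced to 24 genes, the 455 other Mir probe sets and the 2756 other named probe sets of like level. Both member curves run to the right of the others, and that of 1 probe set per gene lies nearer to them (median 0.26 against 0.43).

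Several other Mir genes above the floor differed by more than 1.5-fold. The 3 higher ones above the floor on both arrays were Mir1898, Mir346 and Mir5123. Mir1898 had 6.47 and 7.29 (1.77-fold), Mir346 had 5.09 and 5.74 (1.57-fold) and Mir5123 had 7.71 and 8.31 (1.52-fold). Mir5119 had 4.13 and 5.08 (1.93-fold) and Mir687 had 3.95 and 4.89 (1.92-fold), both within background in control and past the floor through bezafibrate alone. Mir3081 had 5.41 and 4.68 (1.66-fold lower) and Mir23a had 5.17 and 4.56 (1.53-fold lower), both past the floor through control alone.

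Cell identity was checked on the same arrays. Of 8 CD8 T cell markers, 7 had a value and all 7 lay above the floor, with control signals from 7.74 to 11.10. Their median ratio was −0.14, as 6 of the 7 had a lower signal with bezafibrate. Trophoblast genes, which mark the tissue where the Sfmbt2 microRNAs are best known, had a value for 4 of 7. Only Hand1 of these was above the floor, at 5.16 in control and 4.61 with bezafibrate, and all 4 were lower with bezafibrate. B cell markers had 2 of 4 above the floor and all 4 lower, with a median of −0.25. The 2 were Ighm, bright at 9.05 in control and 8.72 with bezafibrate, and Cd79b at 5.41 and 4.85. The macrophage and dendritic list had 0 of 5 above the floor, with 3 higher and 2 lower. CD4 T cell genes had 1 of 3 above the floor and all 3 higher, with a median of 0.07. Cd4 itself had 3.88 and 4.29, within background. NK cell genes had 1 of 3 above the floor, Eomes, which CD8 T cells also use, with 2 higher and 1 equal. The part of other cells in the members' values was not tested.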

How the data were processed

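The deposited values are log2 signals per probe set on 2 arrays, 1 per group. The authors made them with RMA (Affymetrix Expression Console), as the submitters' processing notes list; versions and genome build are not stated there. RMA equalises the distributions of arrays processed together, so each ratio is relative to the other probe sets, and it shrinks differences at low signal. Of 41801 probe sets, 8008 were blank. Gene names came from the platform annotation, and all 43 members matched RefSeq by gene number. RefSeq coordinates served only for order and neighbours, apart from the sequences printed.

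Each log2 ratio is the bezafibrate value less the control value. A median was taken as moved under an alternative when it shifted by 0.1 or more. Members and lists were chosen with earlier results of these data known. Genes were named by a rule that took members 1.5-fold apart, the extremes of each family, all copies of Mir669a, Sfmbt2, main pathway genes, and up to 10 other Mir genes. The median of the members was tested on simulated data with planted differences, and with noise that was set and not taken from these arrays. The counts above the floor were not tested in this way. Python 3.11.15 with numpy 2.4.6, pandas 2.3.3, statsmodels 0.14.6 and matplotlib 3.10.9 was used.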

Additional observations from a re-analysis of the deposited data

How the results depend on the processing

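No paired analysis was possible because each group has 1 array, and for the same reason no replicate could be left out. Quantile normalization and subtraction of a lowess curve on level moved no median by 0.1 and no count. With probe sets of several genes included, the median was 0.27 for all members, for Mir669 and for members inside Sfmbt2, and 0.25 as the difference from the other Mir probe sets (0.42 as reported). With 1 probe set per gene these were 0.26, 0.14, 0.31 and 0.25, and Mir466 had 0.34. Only above the floor, they were 0.20, 0.62 (2 probe sets), 0.20 and 0.11, and Mir466 had 0.28 (1 probe set); the other Mir probe sets then had 0.09. As means, Mir669 had 0.33, Mir466 0.37 and the difference was 0.30. With identical pairs counted once Mir466 had 0.31, and with equal ratios counted once, an alternative chosen after seeing the data, 0.28. Without each set's most distant probe set, Mir297 was at 0.89, its single other probe set. Leaving out Mir669k, Mir466b-2 and Mir669g, also chosen after seeing the data, gave 0.23 for all members, and averaging every probe set that names it gave 0.33 for Mir669a-3. The count of members at least 1.5-fold higher was 4 without a floor and 0 when the floor was the 75th percentile, and 1 under its other alternatives. The count of lower members was 0 under each alternative run. No median changed sign. The number of arrays and signals near background limit what can be said.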
